A study of Mus musculus with 6 samples.

Results

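The oxidative phosphorylation genes described here are those whose probe name begins with Nduf followed by a, b, c, s or v, with Uqcr, Cox4 to Cox8 or Atp5, or is Sdha, Sdhb, Sdhc or Sdhd. They numbered 90 genes, measured by 126 probes on 135 spots, of 36095 gene names, 55681 probes and 59305 spots that were not controls on each array. By role, 36 genes encode subunits of complex I, 4 of complex II, 8 of complex III and 15 of complex V. The 20 genes grouped with complex IV include Ndufa4 and Ndufa4l2, and also Cox4nb, whose current symbol is Emc8 and whose product belongs to a protein complex of the endoplasmic reticulum. A further 4 genes are complex I assembly factors, and Atp5s, Atp5sl and Cox7a2l are related genes whose products are not counted as subunits.

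The study exposed shaved back skin of male C57BL/6 mice aged 6 to 8 weeks to UVB and measured total RNA on 1-colour Agilent arrays. UVB mice received 180 mJ/cm2 under anaesthesia, 3 times a week for 2 weeks, beginning 2 days after shaving, and control mice were kept dark after the same shaving. There were 3 mice and 3 arrays in each group, and how long after the last exposure the skin was taken was not stated in the labels. The RNA came from skin, a tissue of many cell types. Fewer cells of a type and less RNA per cell thus cannot be told apart in any value below.

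Oxidative phosphorylation passes electrons from NADH and succinate through complexes I and II to coenzyme Q, then through complex III and cytochrome c to complex IV, which reduces oxygen. Complexes I, III and IV pump protons across the inner mitochondrial membrane, and complex V, the ATP synthase, makes ATP as protons flow back. Most subunits are encoded in the nucleus and a small core is encoded by mitochondrial DNA, while complex II is wholly nuclear. Several complex IV subunits exist as tissue isoforms, and in skin the machinery serves keratinocytes, dermal cells, fat and the thin muscle below it.

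A few sequences show what was measured at the genes on which the results turn, in lower case with no letters marked. The Cox8b probe lies at chr7:148084852-148084911 (mm9, minus strand), and its middle 30 bases are given because Cox8b was the gene that passed the test. For Sdhb, the middle 30 bases of both probes are given because these probes differed from each other, at chr4:140529606-140529665 for the inner one and chr4:140535052-140535108 for the one nearer the transcript's end (mm9, plus strand). The Uqcrc1 probe spans a splice junction within chr9:108851008-108851487 (mm9, plus strand) and is printed whole.
Cox8b: cgcagcatgaagttgcacatccctgagaga
Sdhb inner probe: tatctgaagaagaaggatgagtcccaggag
Sdhb end probe: gtctccctaagtacagcatatgtaataaac
Uqcrc1: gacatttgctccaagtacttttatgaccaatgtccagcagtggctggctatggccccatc

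Values are log2 signals relative to each array's 75th percentile, so that 0 is that percentile, and differences are UVB minus control with limma standard errors. Of the 90 genes, 88 were tested, each by the brightest of its probes that stood well above background on 3 or more of the 6 arrays. Cox7b2 and Cox8c, isoforms known from testis, were not well above background on any array. After UVB 0 of the 88 genes rose, 1 fell (Cox8b) and 87 did not pass at an adjusted p under 0.05, which is 1.14% called. Over all 24352 genes tested, 11.6% were called by the same rule, 5.18% higher and 6.41% lower after UVB. By probes, 1 of 124 was called (0.806%), against 11.2% of all 33759 probes tested, 5.08% higher and 6.1% lower. At an unadjusted p under 0.05, 13 of the 88 genes stood out, 11 with a negative and 2 with a positive difference. The count depended on the processing: normexp background correction followed by quantile normalization called 8 of the 88 genes, with 17.8% of all genes called, quantile normalization alone called 3, and the other settings called 0 to 6.

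Differences were small across the set. The median log2 difference was -0.07 over the 88 genes and -0.04 over all genes tested, with 57 negative and 31 positive. For 85 of the 88 genes (96.6%) the 95% interval of the difference lay within 2-fold in either direction, as it did for 65.7% of all genes. The median standard error was 0.14 over the 88 genes and 0.18 over all genes tested. The 3 exceptions, Cox8b, Cox6a2 and Cox4i2, are tissue isoforms of complex IV subunits. The intervals of Cox6a2 and Cox4i2 were wide and included 0, with standard errors of 0.49 and 0.32. The tissue isoforms Cox7a1 and Cox6b2 lay within 2-fold. UVB and control arrays did not overlap for 20 genes that were lower and 3 that were higher after UVB. Lower genes were thus 22.7% of the set, against 22.6% of all genes tested, and 15.9% of all genes were higher without overlap.

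**Figure D1:**
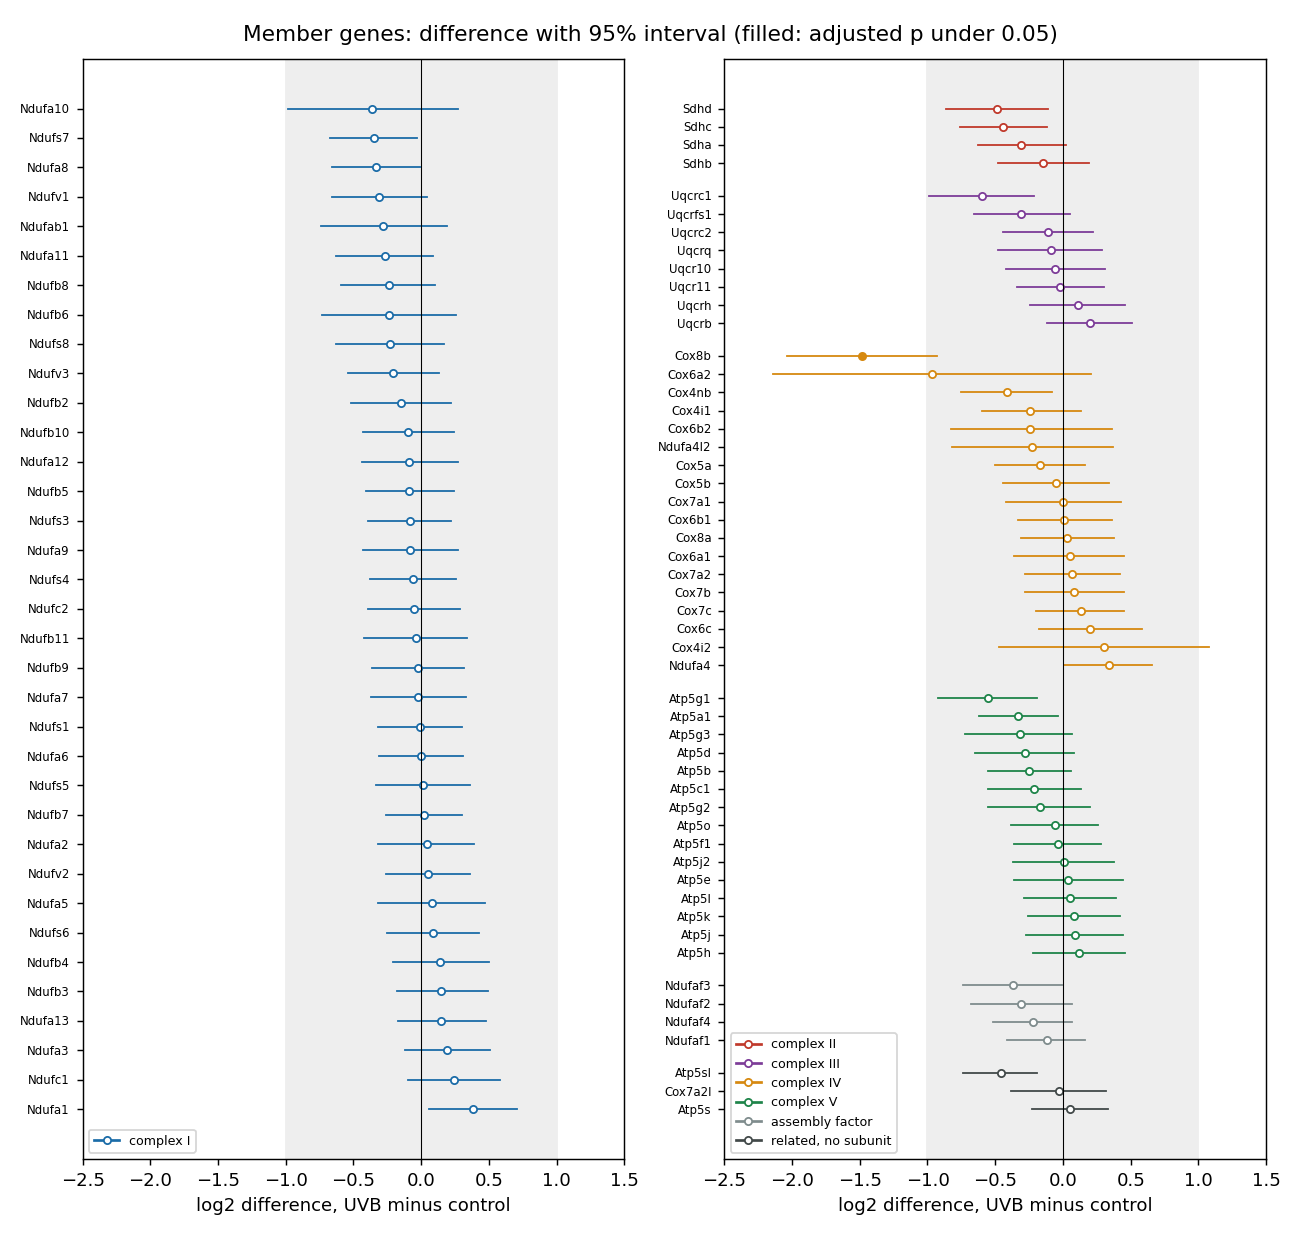
Log2 difference, UVB minus control, of 87 of the 88 tested genes by their brightest probe (x axis), with 95% intervals as lines, grouped and coloured by complex. The grey band marks 2-fold in either direction, and the filled point, Cox8b, is the gene with an adjusted p under 0.05; all other genes shown are open.

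UVB array 2 stood apart from the other UVB arrays for these genes. It gave the highest of the 3 UVB values for 80 of the 88 genes, whereas among control arrays the highest value was array 1 for 36 genes, array 2 for 37 and array 3 for 15. This count was not made over all genes tested. As a whole, UVB array 2 had 54.9% of spots well above background, against 59.6% and 59.1% on UVB arrays 1 and 3. The median deviation of the 88 genes from the control mean was -0.11, 0.08 and -0.21 on UVB arrays 1, 2 and 3, against 0.01, 0.01 and -0.03 on control arrays 1, 2 and 3. Over all genes tested the same medians were -0.03, -0.01 and -0.06 on UVB arrays and 0.03, -0.01 and -0.01 on control arrays. Without UVB array 2 the median difference of the 88 genes was -0.16, and Cox8b was again the single gene called, with 6.34% of all genes called. All arrays shared 1 slide and 1 scan time, with UVB arrays 2 and 3 in the second slide row and the others in the first, and the part of slide position in these values was not tested.

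**Figure D2:**
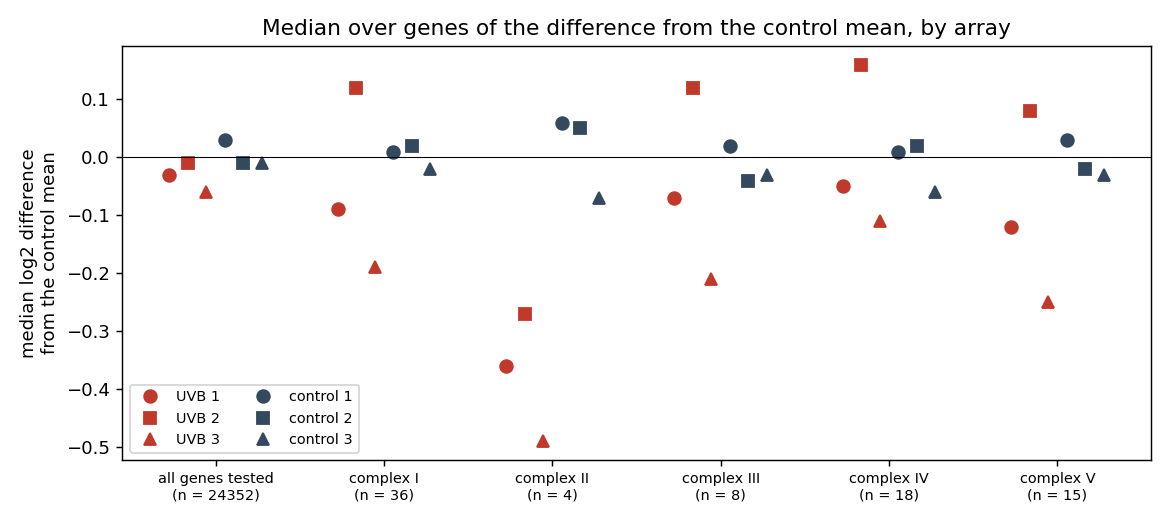
Median over genes of the log2 deviation from the control mean (y axis) for each array, over all tested genes and over the genes of each complex; red symbols are UVB arrays and dark symbols control arrays. UVB array 2 lies above UVB arrays 1 and 3 in each complex. Among the groups shown, complex II is the one in which all 3 UVB arrays lie below all control arrays. The 4 complex I assembly factors, which are not shown, were separated in the same way.

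For the arrays as a whole, the 75th percentile of the signal was 301.8 to 351.9 on UVB arrays and 362.7 to 518.8 on control arrays, and 54.9 to 59.6% of spots were well above background on UVB arrays against 60.9 to 63.3% on control arrays. Keratinocyte markers, which check the labelled tissue, were tested for 10 of 10 genes, of which 0 rose and 1 fell. That call was kept on leaving out UVB array 2 and lost on leaving out any other array. A rise of 1 keratinocyte marker was called without control array 3 and with trend and robust eBayes. Falls ranged from 0 with the replicate block to 3 with normexp and quantile normalization. The skin differed in its makeup of hair follicle transcripts: 11 of 15 hair follicle markers rose, with summed linear signals, in multiples of the 75th percentile, of 304 to 1230 after UVB and 22.0 to 25.4 in control skin. Of 8 fibroblast markers 6 were tested and 3 rose, and of 7 myeloid markers 6 were tested, with 1 rise and 2 falls. Of 6 endothelial markers only 3 were tested, and none of these passed. Leaving out control array 2 kept the 3 fibroblast calls, and leaving out any other array left 0, while the myeloid rise was lost on leaving out any 1 array, with 2 myeloid markers falling each time.

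Complex I, the NADH dehydrogenase and the largest group, had 0 of 36 genes called. Its differences ran from -0.36 to 0.38 with a median of -0.05, 24 negative and 12 positive, and all 36 intervals lay within 2-fold. The smallest p was that of Ndufa1, a small membrane-bound accessory subunit needed for assembly. Ndufa1 measured 6.55, 6.83 and 6.51 on UVB arrays 1 to 3, against 6.26, 6.28 and 6.20 on control arrays. The groups did not overlap, and the difference of 0.38 ± 0.13 had an adjusted p of 0.118. Ndufs7, a core subunit that carries an iron-sulfur cluster, measured 5.15, 5.29 and 4.98 after UVB, against 5.53, 5.52 and 5.42 in control skin, and its difference of -0.35 ± 0.13 had an adjusted p of 0.136. Ndufa8, an accessory subunit, measured 2.81, 2.86 and 2.55 after UVB, against 3.12, 3.02 and 3.08 in control skin, with a difference of -0.33 ± 0.13 (adjusted p = 0.152). In Ndufs7 and Ndufa8 every UVB array lay below every control array, with neither passing the test.

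Core subunits of complex I carry its flavin and iron-sulfur clusters. Besides Ndufs7, Ndufv1, which binds the flavin, differed by -0.31 ± 0.15 (adjusted p = 0.204), without overlap of the groups. Ndufs8, an iron-sulfur subunit, differed by -0.23 ± 0.17 (adjusted p = 0.397). Ndufs3 and Ndufs1 differed by -0.08 and -0.01, and Ndufv2 by 0.05, all less than their standard errors of 0.13. Without UVB array 2 the median over all complex I genes was -0.14.

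Complex II, succinate dehydrogenase, joins the tricarboxylic acid cycle to the respiratory chain. None of its 4 genes passed, while all 4 differences were negative, with a median of -0.37. For 3 of the 4 the groups did not overlap, where 22.6% of all genes tested were lower without overlap. Sdhc, a membrane anchor, measured 3.50, 3.56 and 3.25 after UVB, against 3.93, 3.83 and 3.87 in control skin, a difference of -0.44 ± 0.13 (adjusted p = 0.082). Sdhd, the other anchor, measured 3.97, 4.05 and 3.77 after UVB, against 4.48, 4.57 and 4.20 in control skin, a difference of -0.49 ± 0.15 (adjusted p = 0.0931). Both anchors were thus lower on every UVB array than on any control array. Sdha, the flavoprotein, measured 3.61, 3.72 and 3.59 after UVB, against 3.78, 4.10 and 3.96 in control skin, a difference of -0.31 ± 0.14 (adjusted p = 0.185). In Sdha too the groups were separate.

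The fourth gene, Sdhb, the iron-sulfur subunit, gave different answers with its 2 probes, whose sequences are printed above. The brighter end probe measured 5.66, 5.74 and 5.75 after UVB, against 6.08, 5.78 and 5.72 in control skin, a difference of -0.15 ± 0.14 (adjusted p = 0.535) with overlapping groups. The inner probe measured 2.68, 2.88 and 2.43 after UVB, against 3.34, 3.22 and 3.26 in control skin, a difference of -0.61 ± 0.15 (adjusted p = 0.0534). Its groups did not overlap. At 0.46 this was the widest gap between probes of a gene among the 26 genes with more than 1 tested probe, whose median gap was 0.04.

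**Figure D3:**
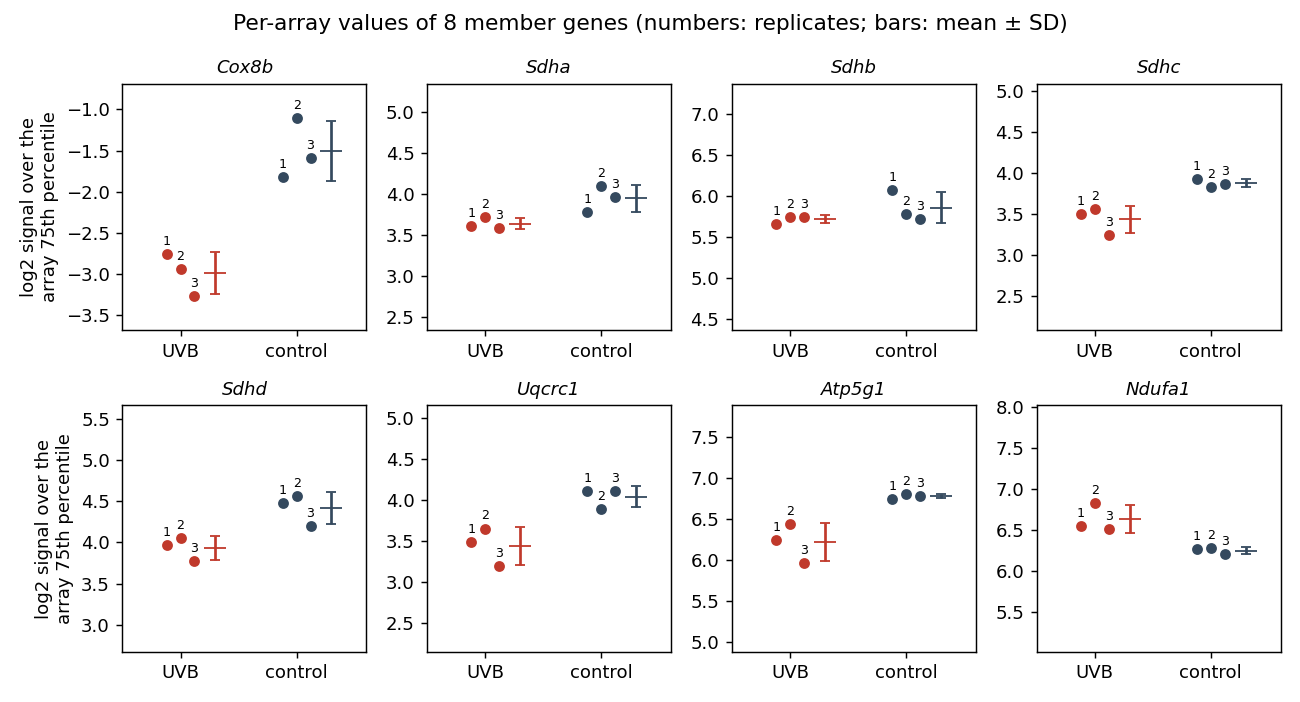
Log2 signal relative to the array's 75th percentile (y axis, each panel spanning the same range of log2 units) of 8 genes on each array, UVB on the left and control on the right, with replicate numbers and mean ± SD (n = 3). Cox8b shows the widest separation of the groups, Sdhb by its brightest probe overlaps, and Ndufa1 is the panel in which UVB is higher.

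Complex III, the cytochrome bc1 complex, had 0 of 8 genes called, a median difference of -0.08, 6 negative and 2 positive. Uqcrc1, one of its core proteins, measured 3.48, 3.65 and 3.19 after UVB, against 4.11, 3.89 and 4.11 in control skin. The groups were separate, and the difference of -0.60 ± 0.16 had an adjusted p of 0.0632. Uqcrfs1, the Rieske iron-sulfur protein, differed by -0.31 ± 0.15 (adjusted p = 0.216), also without overlap. Uqcrc2, the other core protein, differed by -0.11 ± 0.14 (adjusted p = 0.629). Its probe was printed on 10 spots, which within an array varied by an SD of 0.014 to 0.038, against SDs between mice of 0.17 after UVB and 0.08 in control skin. Uqcrb, which helps form the quinone-binding site, differed by 0.20 ± 0.13 (adjusted p = 0.368), the largest positive value of the complex.

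Complex IV, cytochrome c oxidase, held the gene that passed. Cox8b, the isoform of subunit VIII known from heart, skeletal muscle and brown fat, measured -2.76, -2.94 and -3.27 on UVB arrays 1 to 3, against -1.82, -1.10 and -1.59 on control arrays. It averaged -2.99 ± 0.26 after UVB and -1.51 ± 0.37 in control skin (SD, n = 3 each) and was well above background on all 6 arrays. Cox8b fell by 1.48 on the log2 scale (standard error 0.23, 95% interval -2.04 to -0.93, adjusted p = 0.0157), to 0.358 of its control level. With normexp background correction (offset 50) and quantile normalization together, the log2 difference was -0.88 (adjusted p = 0.0107), and with quantile normalization alone it was -1.57 (adjusted p = 0.0167). With replicate number as a block, Cox8b differed by -1.48 with an adjusted p of 0.062 and did not pass. Its partner Cox8a, the isoform found in most tissues, differed by 0.03 ± 0.14 (adjusted p = 0.899).

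Markers of the tissues in which Cox8b is known were read beside it. Of 16 skeletal muscle markers 12 were tested, with 0 called, 8 negative and a median difference of -0.78, and their summed linear signals were 4.45 to 5.99 after UVB against 3.18 to 10.1 in control skin. The markers Ckm, Mylpf, Actn3 and Casq1 were well above background on fewer than 3 arrays. Where probes had to be well above background on all 6 arrays, 8 muscle markers were tested. Of these 4 were positive and 4 negative, with a median of -0.32. With normexp followed by quantile normalization the median of the 12 was -0.30. The muscle median was -0.91, -0.93 and -0.45 without UVB arrays 1, 2 and 3, and -0.54, -0.41 and -1.38 without control arrays 1, 2 and 3, with 12 of 12 negative in the last case. Among the muscle markers Myh4, a fast myosin heavy chain, differed by -2.54 (adjusted p = 0.0638) and was well above background on 1 UVB and 3 control arrays. Of 12 adipocyte markers 10 were tested, and 5 fell and 1 rose, with a median of -0.81 and summed linear signals of 174 to 182 after UVB against 143 to 227 in control skin. The number of adipocyte markers that fell was 3, 1 and 3 without UVB arrays 1, 2 and 3, and 4, 1 and 1 without control arrays 1, 2 and 3. Pparg, the regulator of fat cell genes, fell by 1.53 and Fabp4, a fatty acid carrier, rose by 4.80 on the log2 scale (adjusted p = 0.00571 and 0.0166), while Adipoq and Plin1 did not reach the signal needed for a test. The linear sums weigh bright markers most, and these were named after their values were seen. Among adipocyte markers they were Dgat2, averaging 6.99 after UVB and 6.70 in control skin, and Cidea, averaging 4.99 and 6.17. Among muscle markers it was Tnni2, averaging 1.37 and 1.30. The adipocyte markers Lep, Retn and Cfd were dimmer, averaging -3.97, -3.45 and -2.31 after UVB and -4.52, -3.34 and -1.32 in control skin. Which cells gave the Dgat2 and Cidea signals was not tested. Cidec, an adipocyte marker that fell, was well above background on 0 UVB and 3 control arrays. The part of muscle and fat content in the fall of Cox8b was not tested.

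The other 17 tested complex IV genes did not pass, and over all 18 the median difference was 0.01, with 10 positive and 8 negative. That sign turned under other scalings, to -0.04 with quantile normalization and -0.10 with median scaling. Cox6a2, the muscle isoform of subunit VIa, measured -2.77, -2.47 and -4.01 after UVB, against -1.77, -1.71 and -2.87 in control skin, a difference of -0.97 ± 0.49 (adjusted p = 0.239) with overlapping groups. Cox7a1, the muscle isoform of subunit VIIa, measured -0.79, -1.03 and -0.81 after UVB, against -0.79, -0.67 and -1.19 in control skin, a difference of 0.00 ± 0.18 (adjusted p = 0.99). The differences between these muscle isoforms were not tested. Their widely expressed partners Cox6a1 and Cox7a2 differed by 0.05 ± 0.17 and 0.07 ± 0.15. Cox4i2, an isoform known from lung and low oxygen, differed by 0.30 ± 0.32 (adjusted p = 0.575), and its partner Cox4i1 by -0.24 ± 0.15 (adjusted p = 0.338). Cox6b2, known from testis, differed by -0.24 ± 0.25 and Cox6b1 by 0.01 ± 0.14.

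Ndufa4, named for complex I and now placed in complex IV, measured 6.35, 6.46 and 6.11 after UVB, against 5.96, 5.99 and 5.95 in control skin. The groups were separate, and the difference of 0.34 ± 0.14 had an adjusted p of 0.156. Its hypoxia-responsive relative Ndufa4l2 differed by -0.23 ± 0.25 (adjusted p = 0.582). Cox4nb measured 0.99, 1.14 and 0.75 after UVB, against 1.40, 1.33 and 1.38 in control skin, a difference of -0.41 ± 0.14 (adjusted p = 0.107). Of the remaining structural subunits, Cox5a differed by -0.17 ± 0.14, Cox5b by -0.05 ± 0.16 and Cox7b by 0.08 ± 0.15. One of the 2 Cox5b probes carries coordinates on chromosome 15 in the files although the gene lies on chromosome 1, so that it may read a near-identical copy, and it differed by -0.06 ± 0.16.

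Complex V, the ATP synthase, had 0 of 15 genes called, a median of -0.06, 9 negative and 6 positive. Atp5g1, one of 3 genes for the c subunit of the rotor ring, measured 6.25, 6.44 and 5.97 after UVB, against 6.75, 6.80 and 6.78 in control skin. The groups were separate, and the difference of -0.55 ± 0.15 had an adjusted p of 0.0662. The other two c subunit genes differed by -0.32 ± 0.16 for Atp5g3 (adjusted p = 0.235) and -0.17 ± 0.16 for Atp5g2 (adjusted p = 0.502). The catalytic head gave Atp5a1 at -0.33 ± 0.12 (adjusted p = 0.128) and Atp5b at -0.25 ± 0.13 (adjusted p = 0.245), both with separate groups, and Atp5c1, the central stalk, at -0.21 ± 0.14 (adjusted p = 0.363). Atp5o, in the outer stalk, differed by -0.06 ± 0.13 (adjusted p = 0.788). Atp5k, chosen after its values were seen, had 2 of 3 probes with coordinates on chromosome Y in the files although the gene lies on chromosome 5, and its probes differed by 0.08 to 0.12.

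The complex I assembly factors named by the rule, which help build the complex without staying in it, had 0 of 4 called and 4 of 4 negative, with a median of -0.26. Ndufaf3 measured 0.46, 0.79 and 0.43 after UVB, against 1.06, 0.91 and 0.83 in control skin, a difference of -0.37 ± 0.15 (adjusted p = 0.158). Ndufaf2 differed by -0.31 ± 0.15 (adjusted p = 0.238) and Ndufaf4 by -0.22 ± 0.12 (adjusted p = 0.271). Among related genes, Cox7a2l, a supercomplex factor, differed by -0.03 ± 0.14 (adjusted p = 0.916). Atp5sl, chosen after its values were seen because it lay nearest the threshold, measured 1.72, 1.80 and 1.65 after UVB, against 2.18, 2.19 and 2.19 in control skin, a difference of -0.46 ± 0.11 (adjusted p = 0.0506).

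Probes of the same gene mostly gave like differences. Of the 26 genes with more than 1 tested probe, 4 had probes of both signs: Ndufa5 at -0.05 and 0.08, Cox8a at -0.06 and 0.03, Atp5j2 at -0.01 and 0.01, and Atp5f1 at -0.04 and 0.00. Their gaps were below the standard errors of these differences. Besides Sdhb, the gap passed 0.3 for Ndufv3 and Cox7a2l, named here after their values were seen. The dimmer Ndufv3 probe differed by -0.64 ± 0.17 (adjusted p = 0.0617) and the brighter by -0.21 ± 0.14 (adjusted p = 0.36). The dimmest Cox7a2l probe differed by -0.36 ± 0.26 (adjusted p = 0.411) and the brightest by -0.03 ± 0.14. In all 3 genes with a gap over 0.3 the brightest probe, which stands for the gene, was thus less negative than the dimmest.

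Genes that work with these subunits were read from lists of other mitochondrial genes, with the same 11.6% of all genes called as background. The 12 tested subunits encoded by mitochondrial DNA had 0 called, 12 of 12 positive and a median difference of 0.31, and kept 12 positive under quantile, median and normexp scaling, with medians of 0.22, 0.20 and 0.21. Without control array 3 the count was 10 positive and 2 negative with a median of 0.20, and without control array 1 the median was 0.43. Other settings called up to 2 of these genes. COX3 measured 8.87, 8.97 and 8.89 after UVB, against 8.58, 8.35 and 8.40 in control skin, a difference of 0.47 ± 0.12 (adjusted p = 0.0609). COX2 differed by 0.46 ± 0.14 (adjusted p = 0.0893). For 5 of the 12 the groups did not overlap, all higher after UVB, where 15.9% of all genes tested were higher without overlap. The 81 nuclear genes grouped with complexes I to V, Cox4nb among them, had a median of -0.06 on the same scale. The gap between nuclear and mitochondrial genes was not tested.

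In coenzyme Q synthesis 6 of 12 tested genes fell and 0 rose, with a median of -0.49. The number that fell was 2, 4 and 3 without UVB arrays 1, 2 and 3, and 3, 1 and 2 without control arrays 1, 2 and 3. Pdss1, which makes the side chain of coenzyme Q, measured 0.33, 0.11 and -0.16 after UVB, against 1.85, 2.15 and 2.00 in control skin, and fell by 1.90 (adjusted p = 0.00383). Coq8a, an atypical kinase of the pathway, measured -1.64, -1.25 and -1.13 after UVB, against 0.03, -0.28 and -0.31 in control skin, and fell by 1.16 (adjusted p = 0.016). In both genes the groups were far apart. In the tricarboxylic acid cycle and pyruvate dehydrogenase list 3 of 17 fell and 0 rose, with a median of -0.33; 1 fell without UVB array 2 and 0 without any other array. Its smallest p values were those of Suclg2, a subunit of succinyl-CoA ligase that fell by 0.86 (adjusted p = 0.0281), and Idh3g, of isocitrate dehydrogenase, that fell by 0.56 (adjusted p = 0.0443).

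Of 36 tested assembly factors outside the naming rule 1 fell and 0 rose, with a median of -0.21. That gene was Nubpl, which delivers iron-sulfur clusters to complex I, at -0.97, -1.04 and -0.86 after UVB, against 0.31, 0.36 and 0.33 in control skin, a fall of 1.29 (adjusted p = 0.00391). Cox15, which makes the heme of complex IV, differed by -0.51 (adjusted p = 0.0712). Of 77 tested mitochondrial ribosomal protein genes 4 fell and 0 rose, with a median of -0.27, led by Mrpl37 and Mrps5, which fell by 0.75 and 0.84 (adjusted p = 0.0342 and 0.0359). Of these ribosomal genes 1 fell without UVB array 2 and 0 without any other array, against 12 with normexp and quantile normalization and 18 with trend and robust eBayes. Of 20 regulators of mitochondrial biogenesis 1 fell: Polg, the mitochondrial DNA polymerase, by 0.52 (adjusted p = 0.0461), beside Tfam at -0.52 (adjusted p = 0.0598), and 0 fell on leaving out any 1 array. Of the 5 tested subunits outside the naming rule none passed, with Cyc1, the cytochrome c1 of complex III, at -0.51 (adjusted p = 0.0818) and Atp5mpl at 0.35 (adjusted p = 0.165).

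Among 9 tested carriers and uncoupling proteins 1 rose and 0 fell, with a median of -0.25. Ucp1, the proton leak protein known from brown fat, measured -4.43, -4.04 and -3.33 on UVB arrays and, with no control array showing it well above background, had control values of -7.05, -7.47 and -6.62. It was at least 2.29-fold higher after UVB, counted against the lowest signal well above background on each control array. The adjusted p of 0.00566 belongs to the log2 difference of 3.11 from those control values and does not test this bound. Where probes had to be well above background on all 6 arrays, Ucp1 was left out and 0 of 8 genes of the list rose. Slc25a5, an ADP and ATP carrier, differed by -0.36 (adjusted p = 0.154).

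**Figure D4:**
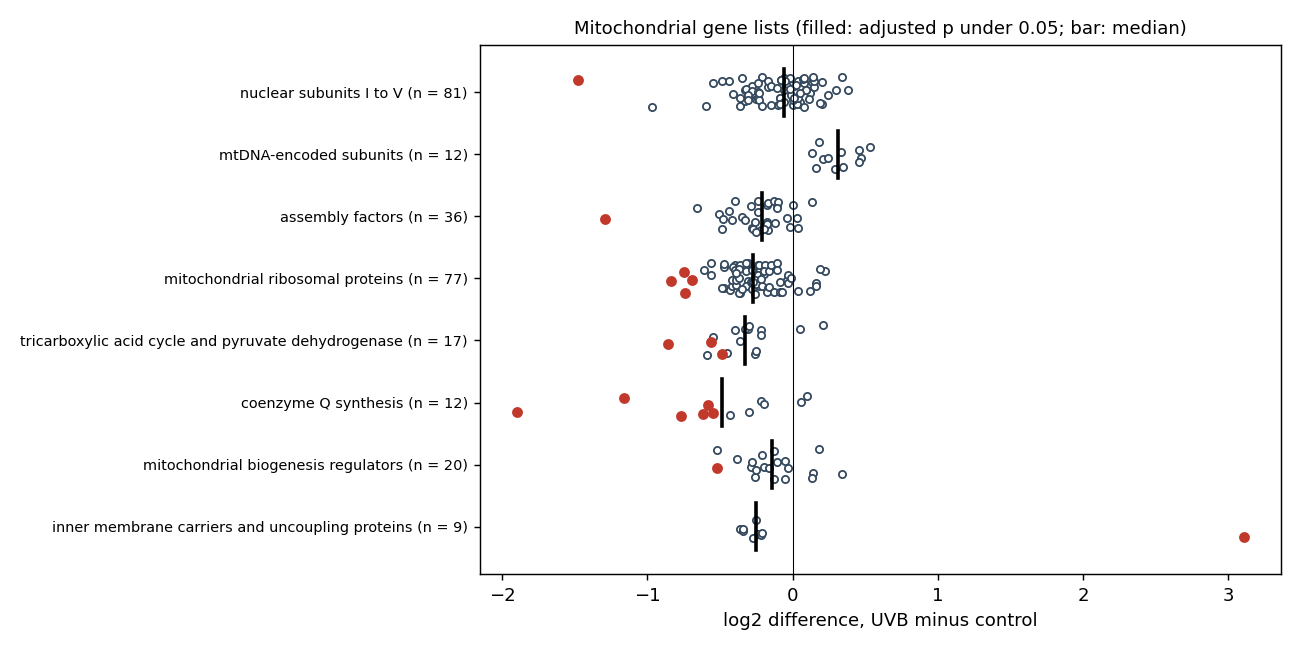
Log2 difference, UVB minus control (x axis), of each tested gene in 8 mitochondrial lists (rows), filled red where the adjusted p was under 0.05, with the list median as a bar. The 81 nuclear genes grouped with complexes I to V, Cox4nb among them, centre near 0 with Cox8b as the filled point. The 12 tested mitochondrial DNA genes all lie right of 0, and 6 of 12 coenzyme Q genes are filled on the left.

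Promoters of the nuclear genes were searched for motifs of factors known to act on respiratory genes: NRF1, GABPA (CCGGAAGT), ESRRA (TCAAGGTCA) and YY1 (AAGATGGC), on both strands of windows from 250 bases before to 50 after each start in RefSeq's GRCm38.p6. Of the 90 genes 74 matched an entry, with 80 promoters. NRF1 letters were found in 23.8% of these promoters against 4.6% of all 32851 promoters, YY1 in 15% against 2.75%, GABPA in 6.25% against 3.89% and ESRRA in 2.5% against 0.423%. No 2 motifs overlapped in these promoters. The median GC content was 58% in these promoters and 52.7% in all, and its part in the motif shares was not tested. A match describes letters in the window and not a bound site.

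**Figure D5:**
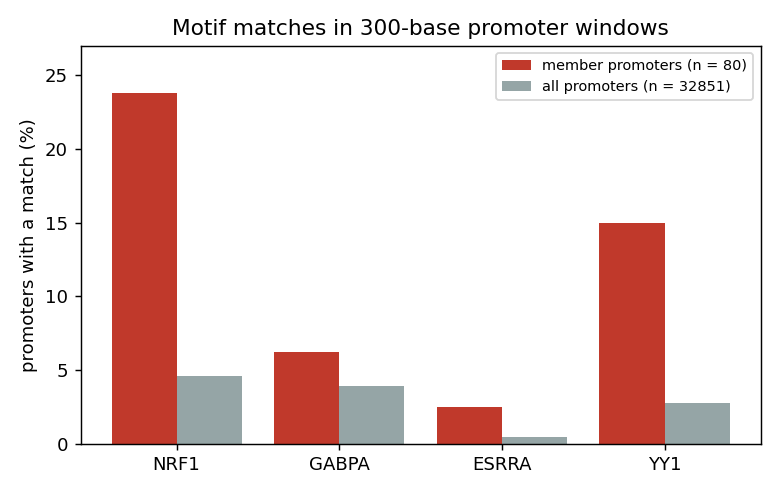
Share of promoters (y axis, percent) with a match on either strand for each of 4 motifs, in 80 promoters of oxidative phosphorylation genes (red) and all 32851 promoters (grey). The red bars are higher for all 4 motifs, with NRF1 at 23.8% against 4.6%.

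The 250 bases before the start are printed for Sdha and Sdhd, of complex II, and for Cox8b, the gene that fell, with NRF1 matches in capitals. They lie at chr13:74350241-74350490, chr9:50603850-50604099 and chr7:140900447-140900696 in GRCm38.p6, all on the minus strand and written 5′ to 3′. Sdha holds 3 NRF1 matches, Sdhd 1 and Cox8b none of the 4 motifs in these bases. Sdhd also had an ESRRA match in what was searched, outside the bases printed.
Sdha: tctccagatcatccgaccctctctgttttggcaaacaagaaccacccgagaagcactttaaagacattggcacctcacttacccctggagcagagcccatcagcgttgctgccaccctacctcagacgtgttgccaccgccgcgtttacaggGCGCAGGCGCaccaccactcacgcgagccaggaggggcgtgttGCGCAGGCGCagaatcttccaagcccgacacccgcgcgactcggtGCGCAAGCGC
Sdhd: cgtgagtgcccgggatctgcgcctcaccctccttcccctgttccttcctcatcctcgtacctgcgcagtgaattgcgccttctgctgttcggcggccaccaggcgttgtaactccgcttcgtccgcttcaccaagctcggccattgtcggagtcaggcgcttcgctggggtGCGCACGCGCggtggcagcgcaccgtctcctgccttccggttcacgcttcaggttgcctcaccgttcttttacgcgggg
Cox8b: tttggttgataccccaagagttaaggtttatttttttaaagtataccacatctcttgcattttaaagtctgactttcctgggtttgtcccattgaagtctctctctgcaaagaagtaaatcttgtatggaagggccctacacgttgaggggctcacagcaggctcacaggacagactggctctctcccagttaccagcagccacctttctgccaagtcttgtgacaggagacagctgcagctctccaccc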

How the data were processed

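Total RNA from back skin of 3 UVB and 3 control mice was labelled with Cy3 from 0.2 µg and hybridised to 1-colour arrays, per the labels' protocols. Groups and replicate numbers came from the sample titles. The spot intensity was extracted by the authors with Agilent Feature Extraction 10.7.1.1, per the submitters' processing notes and the file headers, and carries background subtraction without scaling across arrays. The authors' log2 values in the deposited table, made by steps the labels do not state, were tried in its place. Here each processed intensity was turned into log2 and each array's 75th percentile was taken off, without control spots and outlier flags, with spots of a probe averaged. Probes well above background on at least 3 of 6 arrays were fitted with limma 3.58.1 in R 4.3.3 (lmFit, eBayes, two-sided, no covariate), with Benjamini-Hochberg adjustment over all 33759 probes tested, and the code was tested on simulated data. Genes are read by their brightest tested probe. Where a group had no probe well above background, the fold is a bound against the lowest such signal on each array. The number of arrays limits the precision.

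The genes, the lists and the markers were chosen with earlier results of these data known. Named are the 3 genes of smallest p in each complex and among the assembly factors, passing genes (5 largest each way), core subunits, tissue isoforms, genes whose probes have both signs, and the 2 smallest p in each other list; exceptions are marked, 1 gene is not reported here by name, and markers are named only where they bear on Cox8b. Gene names are those of the files, and probe positions are in mm9. Cox4nb stayed in complex IV as its name places it, with a median without it added after seeing the data. Alternatives were other scalings, normexp with offset 50 followed by quantile normalization, the deposited table, other filters, eBayes with trend and robust, other ways to join probes, a replicate block and each array left out.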

Additional observations from a re-analysis of the deposited data

How the results depend on the processing

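Cox8b kept its direction under every alternative run and passed the test under all but the replicate block, where its log2 difference was -1.48 with an adjusted p of 0.062. The number of genes that fell was 1 as reported, 3 with quantile normalization and with the deposited table, 6 with normexp followed by quantile normalization, 4 with probes well above background on all 6 arrays, 6 with trend and robust eBayes, 2 with 1 probe per gene or the mean of a gene's probes, and 0 with the replicate block. With normexp and quantile normalization together 2 genes, Ndufa1 and Ndufa4, rose, against 0 as reported. Counted by probes, 4, 4, 8, 6, 8 and 0 fell with quantile normalization, the deposited table, normexp with quantile normalization, the filter on all 6 arrays, trend and robust eBayes and the replicate block, against 1 as reported, and 2 probes rose with normexp and quantile normalization. In these settings 12.8, 12.7, 17.8, 16.4, 17.7 and 2.61% of all genes were called. Leaving out each array in turn gave 1 gene and 1 to 2 probes that fell, the 2 without UVB replicate 2. Median scaling moved the median of all probes to -0.139 from -0.029, and with it the median of the 88 genes to -0.18, of complex II to -0.48 and of complex IV to -0.10; relative to that shift the order of the complexes was not tested. With each array left out, medians ranged from -0.16 to -0.02 for all 88 genes, -0.14 to -0.01 for complex I, -0.42 to -0.31 for II, -0.19 to 0.04 for III, -0.09 to 0.06 for IV and -0.13 to 0.01 for V. Complex IV without Cox4nb had a median of 0.01. Among 77 named genes and 1229 comparisons with alternatives, 66 lost and 36 gained a call, and 57, over 15 genes, changed sign without a call in either setting. With the replicate block 1 coenzyme Q, 0 tricarboxylic acid cycle, 0 mitochondrial ribosomal and 0 biogenesis genes fell, as did 2 adipocyte markers, and 0 fibroblast markers rose; with no filter on dim probes the first 4 counts were 3, 0, 0 and 0. Same-numbered arrays did not deviate together (r = -0.111, -0.268 and -0.095). These deviations were taken from each group's mean over only 3 arrays, so they cannot decide whether the replicate numbers pair the mice.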
